A study of Homo sapiens with 16 samples.

Results

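The matrix metalloproteinase cluster on chromosome 11 holds 9 genes in 435 kb: MMP7, MMP20, MMP27, MMP8, MMP10, MMP1, MMP3, MMP12 and MMP13, in order of rising coordinate. They were taken as a family of neighbours, among 19974 protein-coding loci, and each locus was the gene body with 10 kb on each side. Peaks were assigned by their summit, and a peak lying in overlapping windows was counted once for the cluster. Chromatin accessibility was measured by ATAC-seq, in which Tn5 transposase cuts open DNA, in IMR90, a human fibroblast line from lung. Every library came from cells infected with a retrovirus for ΔB-RAF:ER, a truncated B-RAF kinase fused to the hormone-binding part of the estrogen receptor. The 4 groups of 4 libraries were Raf-active cells in hypoxia, Raf-active cells in normoxia, Raf-inactive cells in hypoxia and Raf-inactive cells in normoxia. The fusion is switched on by 4-hydroxytamoxifen, and hypoxia was 0.5% O2. The sources used here give no length of either treatment and no vehicle for the Raf-inactive cells, and the cell line comes from a single fetal lung. The labels do not say whether the 4 replicates were separate cultures, so the p-values rest on the variation among these libraries alone, and that variation may be technical. The question behind the design was how hypoxia changes accessibility in Raf-induced senescence.

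Matrix metalloproteinases are zinc enzymes that cut extracellular matrix, and the members of the cluster are secreted as inactive precursors. MMP1, MMP8 and MMP13 are collagenases, MMP3 and MMP10 stromelysins that cut proteoglycans and glycoproteins and activate other precursors, MMP7 is matrilysin, MMP12 the elastase of macrophages and MMP20 the enamel protease of developing teeth. MMP1, MMP3 and MMP10 belong to the secretory programme of senescent fibroblasts, and AP-1, a Fos and Jun dimer that acts downstream of Raf and ERK, is a textbook activator of several of these promoters.

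Promoters of members are shown first because the peaks at gene starts, described further on, lie over them. RefSeq's table of promoters for GRCh38.p14, the same assembly as hg38, matched 5 of 9 members and gives 250 bases before to 50 bases after the start. MMP1, MMP3, MMP12 and MMP13 are not shown. All lie on the minus strand and are printed 5′ to 3′, with capitals marking the AP-1 motif TGANTCA and the TATA box TATAAA. MMP7 is at chr11:102530698-102530997, MMP10 at chr11:102780579-102780878, MMP8 at chr11:102724905-102725204 and MMP20 at chr11:102625283-102625582. MMP7, MMP10 and MMP8 had open chromatin at or just before the start, and MMP20, which had none, is given for contrast.
MMP7: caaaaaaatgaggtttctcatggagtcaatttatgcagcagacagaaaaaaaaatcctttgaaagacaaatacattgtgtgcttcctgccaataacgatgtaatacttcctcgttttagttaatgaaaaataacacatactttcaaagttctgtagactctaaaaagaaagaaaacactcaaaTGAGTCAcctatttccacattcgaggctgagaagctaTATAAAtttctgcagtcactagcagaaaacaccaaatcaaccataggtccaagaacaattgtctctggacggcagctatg
MMP10: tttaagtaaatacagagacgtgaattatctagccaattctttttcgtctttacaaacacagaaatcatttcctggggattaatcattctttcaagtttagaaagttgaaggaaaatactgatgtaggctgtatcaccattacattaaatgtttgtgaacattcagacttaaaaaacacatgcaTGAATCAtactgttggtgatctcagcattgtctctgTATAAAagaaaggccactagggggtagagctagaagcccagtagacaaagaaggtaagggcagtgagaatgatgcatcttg
MMP8: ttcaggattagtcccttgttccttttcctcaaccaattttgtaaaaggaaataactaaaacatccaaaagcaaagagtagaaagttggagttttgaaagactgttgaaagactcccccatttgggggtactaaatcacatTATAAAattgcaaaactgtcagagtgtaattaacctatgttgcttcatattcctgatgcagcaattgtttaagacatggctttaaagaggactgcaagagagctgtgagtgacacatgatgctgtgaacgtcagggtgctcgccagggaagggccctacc
MMP20: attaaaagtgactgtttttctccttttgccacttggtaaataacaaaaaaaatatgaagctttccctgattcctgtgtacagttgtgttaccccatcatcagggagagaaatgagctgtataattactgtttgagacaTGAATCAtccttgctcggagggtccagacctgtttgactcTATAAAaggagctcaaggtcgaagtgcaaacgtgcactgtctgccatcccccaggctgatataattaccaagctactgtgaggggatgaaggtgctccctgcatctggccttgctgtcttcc

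The MMP7 and MMP10 promoters share a layout, with an AP-1 match 67 bases before the start in both and a TATA box 30 bases before it in MMP7 and 31 in MMP10, counted to the first base of each match. In MMP20 the AP-1 match lay 112 bases and the TATA box 72 bases before the start. MMP8 had no AP-1 match in this window, a TATA box 110 bases before the start, and a C/EBP match (TTGCNNAA) 103 bases before it. Of all 35116 promoters in the table, 7.71% held TGANTCA, 11.5% TATAAA and 10.5% TTGCNNAA, each searched on both strands. The other motifs searched were CAGGAAG and ACCGGAAG for ETS factors (12.7% and 2.17% of all promoters), ACGTG, the core of the hypoxia response element (21.4%), TTGCNNCAA for C/EBP (1.98%) and CCACNAG, a piece of the CTCF motif (14.2%). CAGGAAG was found as its reverse complement 169 bases before the MMP7 start. ACGTG was found 233 bases before the MMP10 start, 43 before the MMP20 start and 11 before the MMP27 start, and CCACNAG 18 before the MMP10 start. No matches overlapped each other. The promoters were poor in G and C, at 35.7% in MMP7, 44.3% in MMP20, 33.3% in MMP27, 40.7% in MMP8 and 36.3% in MMP10, against a median of 58.7% over the table. A match is a description of these letters and not evidence of a factor bound there.

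The 16 deposited peak lists held 169287 to 206757 distinct peaks each. The background pileup, the commonest background coverage among a library's peaks, stands in for depth here. It is 1 value per library and not the local background of a single peak. It was 6.53 to 8.34 in Raf-active hypoxia, 6.09 to 7.1 in Raf-active normoxia, 4.61 to 5.02 in Raf-inactive hypoxia and 3.01 to 3.5 in Raf-inactive normoxia. Depth thus differed between groups in the direction of both treatments, and absence of a peak means not called at that depth. Beside the comparisons, peaks at 11 fibroblast marker loci summed to 102 to 116, 111 to 122, 109 to 116 and 104 to 107 per library in the 4 groups in that order. Those at 8 epithelial loci summed to 56 to 61, 54 to 58, 35 to 37 and 34 to 38, those at 9 blood loci to 53 to 56, 45 to 51, 34 to 34 and 31 to 36, those at 6 endothelial loci to 79 to 87, 87 to 91, 68 to 73 and 64 to 67, and those at 4 neuronal loci to 119 to 130, 124 to 148, 77 to 92 and 87 to 94. No marker locus was at 0 in a whole group. In the scaled fit described further on, 1 of 11 fibroblast loci rose and 3 fell with Raf in normoxia (median log2 change -0.09), and 0 rose (0 also at an unadjusted p under 0.05 in limma) and 8 fell in hypoxia (median -0.45). Of 5 tested epithelial loci 4 rose and 1 fell in normoxia (median 0.38), and 4 rose in hypoxia (median 0.41). Of 6 endothelial loci 3 rose and 2 fell in normoxia, while hypoxia gave 1 rise and 2 falls. Of 6 tested blood loci 4 rose and 1 fell in normoxia, and 2 rose in hypoxia, and of 4 neuronal loci 2 rose and 2 fell in each. Over all loci the shares were 37.1% rising and 25.9% falling in normoxia, and 33.6% and 26.3% in hypoxia. At promoters, peaks in all 16 libraries were found for 3 of the 4 fibroblast genes in the RefSeq table and for 0 of 3 epithelial genes, 1 of 3 blood genes, 1 of 2 endothelial genes and 3 of 3 neuronal genes. The part of other cell types in the results was not tested, and open chromatin in more cells cannot be told apart from more open chromatin per cell.

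The cluster as a whole held slightly more peaks in Raf-active than in Raf-inactive cells, a difference that was gone once peak numbers were scaled to the same number of distinct peaks per library. The cluster had 44, 44, 40 and 41 distinct peaks in Raf-active hypoxia, 42, 46, 44 and 46 in Raf-active normoxia, 35, 34, 38 and 40 in Raf-inactive hypoxia, and 37, 40, 42 and 39 in Raf-inactive normoxia. The ranges overlapped in every comparison. The mean in Raf-active normoxia was 44.5 ± 1.91, against 39.5 ± 2.08 in Raf-inactive normoxia. The mean in Raf-active hypoxia was 42.2 ± 2.06, against 36.8 ± 2.75 in Raf-inactive hypoxia (SD, n = 4 each). With every library scaled to the same number of distinct peaks, the Raf difference was -0.0367 peaks in normoxia and -0.588 in hypoxia, in place of 5.0 and 5.5. In lists cut to equal length it was 3.5 in normoxia and 2.5 in hypoxia, and in lists of matched depth 3.0 and 4.0. Hypoxia went with 2.75 fewer peaks in Raf-inactive and 2.25 fewer in Raf-active cells, each with overlapping ranges.

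**Figure D1:**
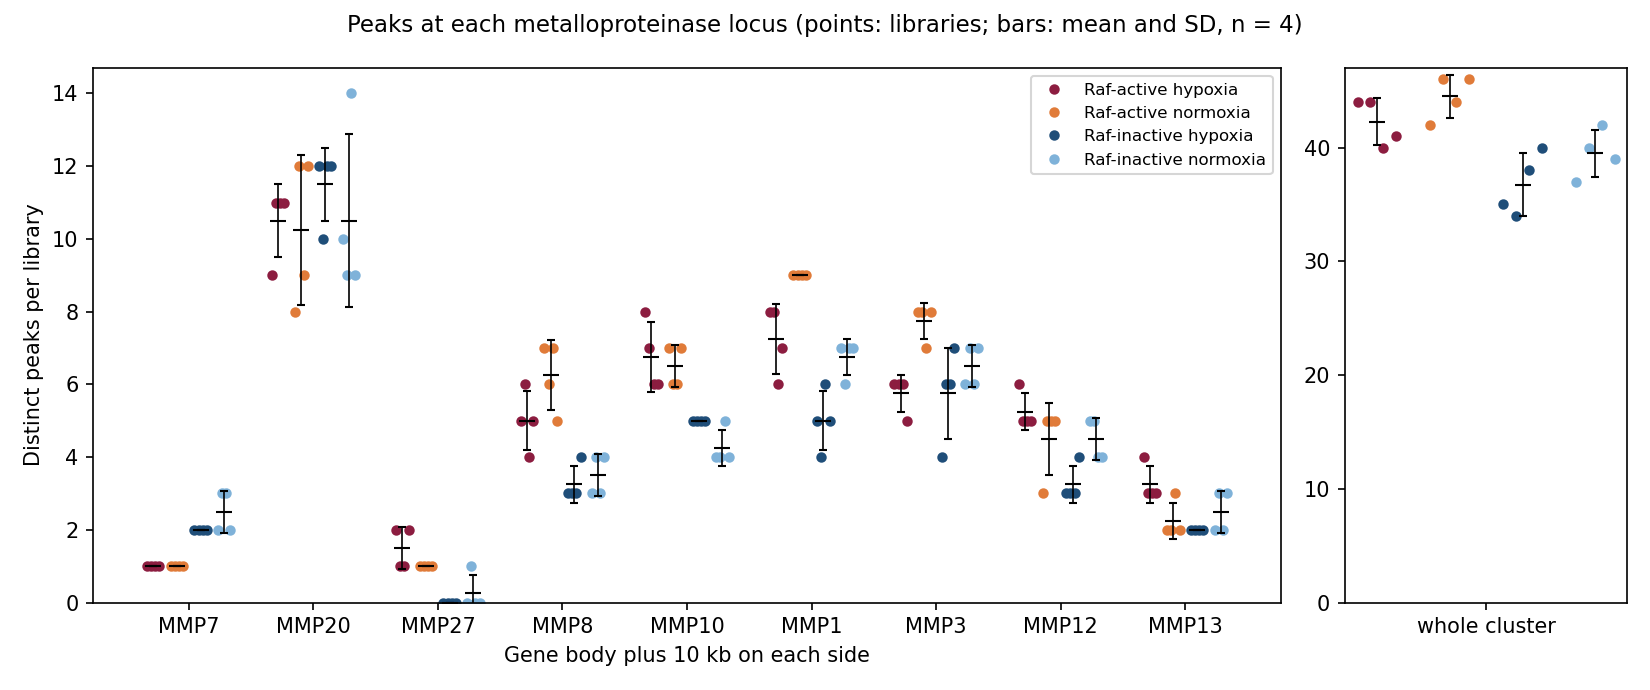
Distinct peaks per library (y axis) at each member locus, gene body plus 10 kb on each side, and in the whole cluster; points are libraries and bars the mean and SD of 4. MMP20 had the most peaks in every group, MMP27 between 0 and 2 in every library, and the whole cluster between 34 and 46.

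Merging the 16 lists gave 67 regions in the windows, of 355447 in the genome, and 30 of them lay inside a member gene. Of the 51 regions with a peak in at least 4 libraries, 20 (39.2%) were open in all 16, against 31.7% of such regions genome-wide. Many of the cluster's open regions were thus shared by all libraries, and the strongest by -log10 p was not at a gene start. The region with the highest mean rank by -log10 p in each group's lists was chr11:102727750-102728342, 3172 bp upstream of MMP8. Its mean percentile within the lists was 93.8 in Raf-active hypoxia, 91.7 in Raf-active normoxia, 93.2 in Raf-inactive hypoxia and 91.1 in Raf-inactive normoxia. The authors' fold enrichment there, a peak's pileup over its local background, was 16.6 to 19.9 in the Raf-active and 14.3 to 18.3 in the Raf-inactive libraries. By fold other regions stood higher in some groups, among them the MMP10 start in Raf-inactive hypoxia (20.2 to 24.2).

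**Figure D2:**
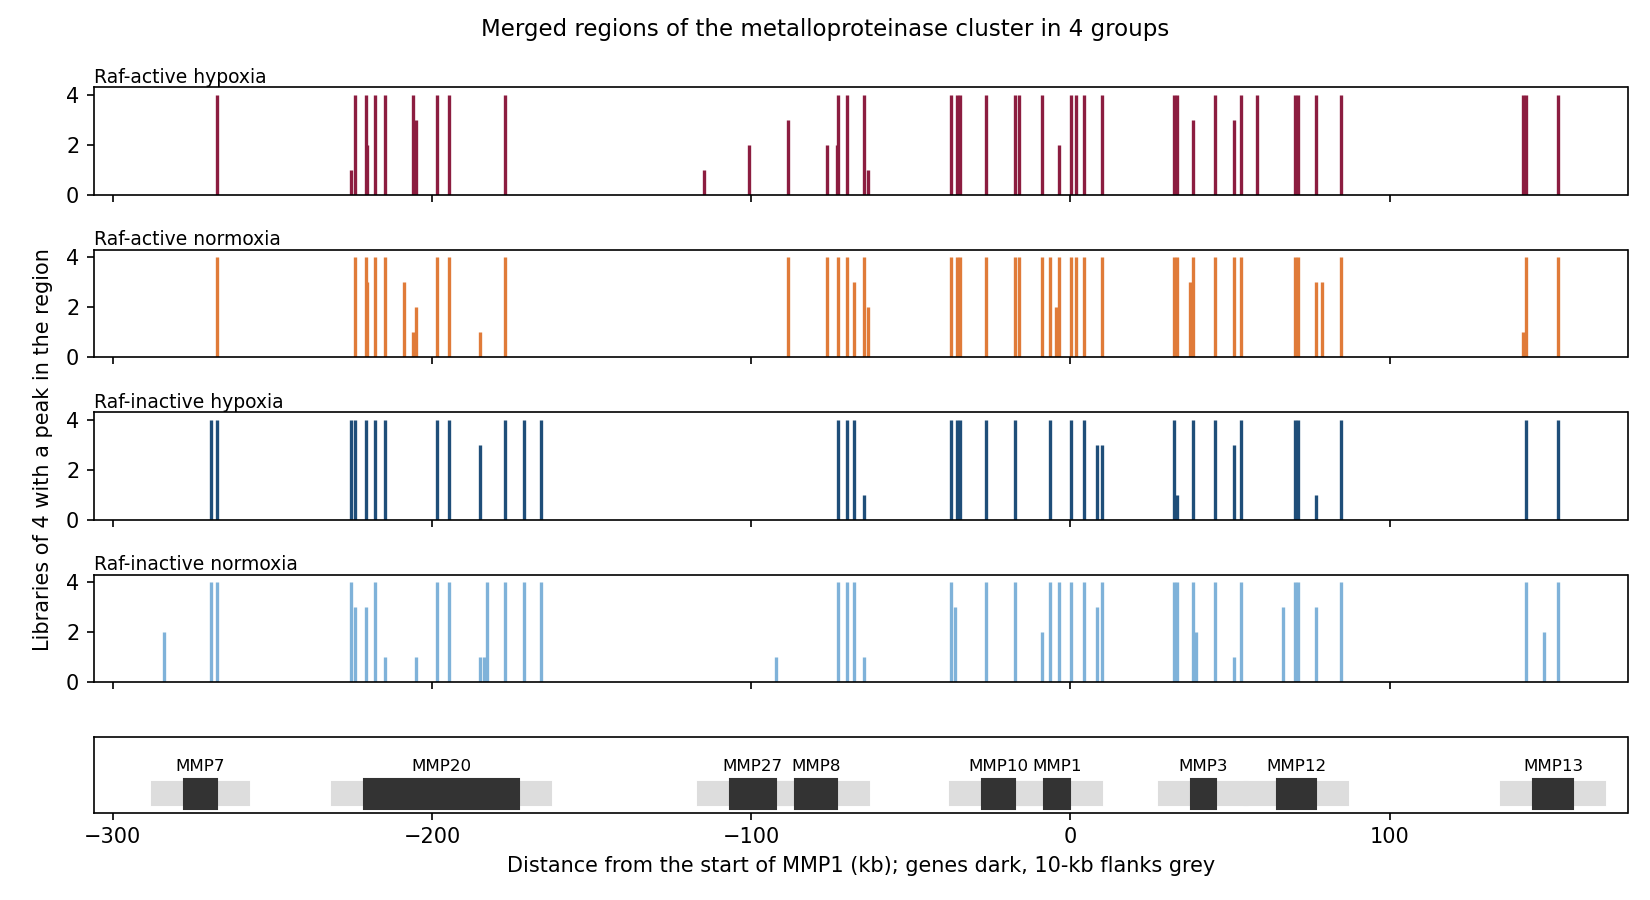
Map of the 67 merged regions: the x axis is the distance from the MMP1 start in kb, the height of a line the number of libraries (of 4) with a peak in the region, and the lowest panel shows the genes and their flanks. The regions at 4 in every panel number 20, and none of them lies in the MMP27 window. DNA outside the windows was not examined.

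Accessibility at the gene starts differed among the members. Regions open in all 16 libraries covered the starts of MMP7, MMP10, MMP1 and MMP3, and another lay 359 bp upstream of MMP8. No region lay within 1 kb of the starts of MMP20 and MMP13, and a peak 279 bp upstream of the MMP27 start was called in 1 Raf-inactive normoxia library. The folds that follow are the authors' values for single peaks; they depend on depth and on the list, so they are described without a test. MACS2 adds 1 to the pileup and to the background, which lowers the fold of a shallow library for the same enrichment.

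The start of MMP3, the stromelysin-1 gene, split the libraries by Raf. The fold enrichment there was 14.0, 13.9, 17.7 and 15.9 in Raf-active hypoxia, 16.8, 18.0, 19.9 and 18.9 in Raf-active normoxia, 8.21, 5.65, 8.02 and 6.02 in Raf-inactive hypoxia, and 7.93, 5.48, 5.74 and 5.34 in Raf-inactive normoxia. All 8 Raf-active libraries lay above all 8 Raf-inactive ones. The mean percentile of this region (chr11:102842901-102844016) within the lists was 72.2 in Raf-active hypoxia and 89.6 in Raf-active normoxia, against 38.5 in Raf-inactive hypoxia and 35.8 in Raf-inactive normoxia. A region 7922 bp upstream of MMP3 (chr11:102851219-102851791) was ordered alike. Its folds were 16.4 to 20.0 in Raf-active hypoxia and 19.2 to 23.7 in Raf-active normoxia, against 11.8 to 13.3 in Raf-inactive hypoxia and 5.73 to 9.91 in Raf-inactive normoxia.

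At the MMP1 start (chr11:102797922-102798554) the order of the folds was the opposite. The interstitial collagenase gene had folds of 8.89, 8.23, 9.24 and 7.55 in Raf-active hypoxia, 8.68, 8.6, 10.4 and 10.1 in Raf-active normoxia, 13.0, 13.3, 13.5 and 13.4 in Raf-inactive hypoxia, and 13.8, 12.0, 11.8 and 12.4 in Raf-inactive normoxia. The Raf-inactive libraries, although shallower, all had higher folds. The mean percentile within the lists hardly moved and was slightly higher in Raf-active cells. It was 85.2 and 86.0 in Raf-active hypoxia and normoxia against 83.3 and 83.8 in Raf-inactive hypoxia and normoxia. A fold is a ratio over the local background, so a lower fold need not mean a lower pileup in the peak. Whether the local background differed between groups was not tested. At the MMP10 start (chr11:102780272-102780969), which holds the promoter printed above, folds were high in all groups. They were 16 to 18.5 in Raf-active hypoxia, 18.1 to 20.5 in Raf-active normoxia, 20.2 to 24.2 in Raf-inactive hypoxia and 18.1 to 20.0 in Raf-inactive normoxia. The folds of the Raf-active hypoxia libraries lay below those of the Raf-inactive hypoxia ones without overlap, and the normoxia groups overlapped. The mean percentile within the lists went the other way, at 87.0 in Raf-active hypoxia against 83.2 in Raf-inactive hypoxia. In normoxia it was 88.7 in Raf-active against 82.3 in Raf-inactive cells.

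The MMP7 start stood out in 1 group. The matrilysin gene had folds of 6.93, 6.11, 5.78 and 6.37 in Raf-active hypoxia, 14.0, 17.2, 16.9 and 14.6 in Raf-active normoxia, 6.42, 5.81, 7.33 and 5.84 in Raf-inactive hypoxia, and 5.95, 9.22, 7.11 and 7.56 in Raf-inactive normoxia. The 4 Raf-active normoxia libraries lay above the other 12, whose ranges overlapped. The region (chr11:102530475-102531031) covers the printed MMP7 promoter, and the mean percentile within the lists was 40.8 in Raf-active hypoxia, 72.1 in Raf-active normoxia, 34.8 in Raf-inactive hypoxia and 45.8 in Raf-inactive normoxia. Just upstream of MMP8, the neutrophil collagenase gene, folds were 4.41 to 5.78 in Raf-active hypoxia, 6.06 to 8.15 in Raf-active normoxia, 7.74 to 9.27 in Raf-inactive hypoxia and 3.45 to 3.91 in Raf-inactive normoxia, the lowest of the 4 groups. The MMP8 start itself had a peak in 2 Raf-active hypoxia libraries only. The MMP12 start was called in 4 libraries of Raf-active hypoxia, 3 of Raf-active normoxia, 1 of Raf-inactive hypoxia and 3 of Raf-inactive normoxia.

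**Figure D3:**
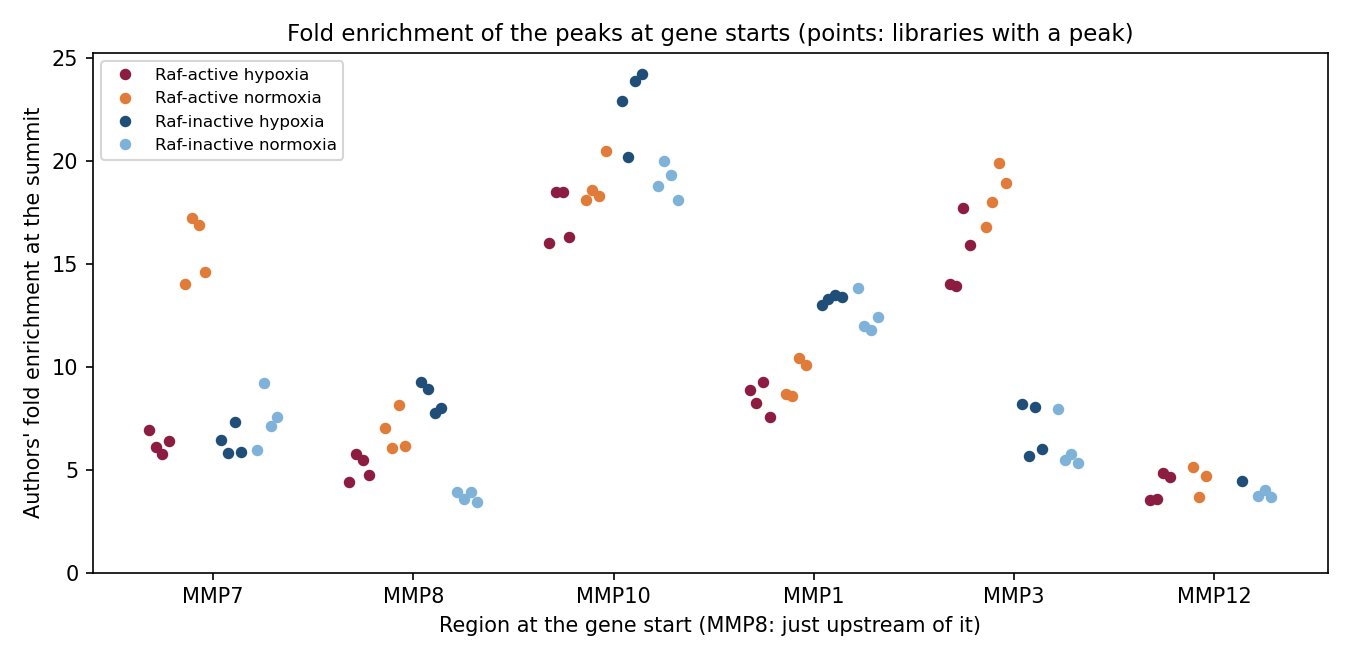
The authors' fold enrichment (y axis) of the peak at each member's start, or for MMP8 just upstream, in each library that had a peak; colours give the groups. MMP3 separates Raf-active libraries (13.9 to 19.9) from Raf-inactive ones (5.34 to 8.21), and MMP7 is high in Raf-active normoxia (14.0 to 17.2). MMP1 has the folds in the opposite order to MMP3, but its mean percentile within the lists was slightly higher in Raf-active cells.

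Raf activation was then examined region by region, in normoxia and in hypoxia. A region was called gained when 4 of 4 libraries of the Raf-active group and 0 of 4 of the Raf-inactive group had a peak, and lost in the reverse case. In normoxia 6 of 51 regions were gained (11.8%), against 17.0% of all 248736 regions with peaks in at least 4 libraries, and 5 were lost (9.8%), against 12.8%. In hypoxia 6 were gained (11.8%, against 16.6%) and 5 were lost (9.8%, against 10.6%). The cluster's shares were near or under the genome's, so the counts single out nothing about the cluster as a whole. The filter admits regions open in a single group, so the shares describe it and are not a test.

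With all peaks counted, the regions gained with Raf in both oxygen states were 2, and both lay close to starts of genes of the senescent secretory programme. The first, chr11:102781706-102782101, lay 1249 bp upstream of MMP10. Its folds were 11.7, 9.6, 11 and 11.4 in Raf-active hypoxia and 11.8, 11.4, 11.7 and 12.1 in Raf-active normoxia, and no Raf-inactive library had a peak there. The second, chr11:102799606-102800298, lay 1973 bp upstream of MMP1. Its folds were 5.93, 6.38, 5.79 and 6.02 in Raf-active hypoxia and 6.82, 8.33, 6.18 and 6.22 in Raf-active normoxia, again with no peak in any Raf-inactive library. Both were also gained in lists thinned to the same depth, among peaks enriched 5-fold or more, and in lists of equal length. When a peak had to cover 50% of the region, the one upstream of MMP1 lost its call in normoxia. Among peaks enriched 5-fold or more, other regions were also gained in both oxygen states. They lay inside MMP20 (chr11:102583208-102583898), 8483 bp upstream of MMP8 (chr11:102733258-102733610) and 18057 bp downstream of the MMP10 start (chr11:102762341-102762828). With all peaks counted, each of these had a peak in some Raf-inactive libraries.

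The regions lost with Raf in both oxygen states were 3, in the MMP7 and MMP20 part of the cluster. One lay inside MMP7, 1877 bp downstream of its start (chr11:102528581-102529095), with folds of 8.39, 7.47, 9.04 and 8.68 in Raf-inactive hypoxia and 6.44, 6.48, 5.28 and 3.56 in Raf-inactive normoxia. No Raf-active library had a peak there, and in normoxia the call ended at matched depth, at a −log10 q of at least 5 and among peaks enriched 5-fold or more. The others lay 1527 bp (chr11:102626629-102627079) and 6875 bp (chr11:102631999-102632405) upstream of MMP20, with folds of 3.9 to 10.9 and 3.9 to 7.43 in the 8 Raf-inactive libraries. Both were lost at matched depth as well, in each oxygen state. Among peaks enriched 5-fold or more the nearer one lost its call in normoxia and the farther one in hypoxia. Regions inside MMP20 open in all 16 libraries went both ways with Raf. Values are mean percentiles in hypoxia and normoxia, Raf-active against Raf-inactive. They were higher at chr11:102580082-102580643 (76.1 and 77.5 against 29.1 and 25.9) and chr11:102603012-102604016 (83.8 and 84.9 against 54.6 and 58.2). So were those at chr11:102620607-102621609 (84.9 and 86.8 against 48.3 and 64.5). At chr11:102599279-102600436 they were lower (80.0 and 82.9 against 92.9 and 90.9).

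Other regions met the rule in 1 oxygen state. In normoxia, the gained regions at 18057 bp and 16956 bp downstream of the MMP10 start (chr11:102762341-102762828 and chr11:102763447-102763884), beyond the 3′ end of the gene, were open in all 12 libraries outside Raf-inactive normoxia. One between MMP27 and MMP8 (chr11:102709544-102709838) was open in 3 Raf-active hypoxia and 4 Raf-active normoxia libraries, and one inside MMP8 (chr11:102721662-102721985) in 2 and 4 of them. The 2 further losses in normoxia were at chr11:102572677-102573113, downstream of MMP20, and at chr11:102615302-102615690 inside MMP20, which was open in Raf-inactive normoxia alone. In hypoxia the further gains were inside MMP20 (chr11:102592197-102592447) and between MMP10 and the 3′ end of MMP1, into which it reached (chr11:102788214-102790262). Others lay beyond the 3′ end of MMP12, in its window (chr11:102856452-102856855), and downstream of MMP13 (chr11:102939624-102939969). The further losses in hypoxia were 5327 bp upstream of MMP8 (chr11:102729965-102730780) and inside MMP1 (chr11:102791545-102792042). At matched depth the call ended for both of these losses and for the gain inside MMP20.

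Hypoxia changed fewer regions than Raf, in the cluster as in the genome. In Raf-inactive cells 2 of 51 regions were gained with hypoxia (3.92%, against 1.8% of all regions) and 2 were lost (3.92%, against 1.91%). The gains were the pair downstream of MMP10 that was also gained with Raf in normoxia. These comparisons share the Raf-inactive normoxia libraries, so the 2 results are not independent. Their folds at chr11:102762341-102762828 were 9.32, 8.3, 9.89 and 9.35 in Raf-active hypoxia, 8.76, 9.09, 8.26 and 8.71 in Raf-active normoxia, but 3.31, 3.45, 2.7 and 2.79 in Raf-inactive hypoxia. The losses were the region inside MMP20 open in Raf-inactive normoxia alone and a region inside MMP1 (chr11:102794432-102794775), which had peaks in 2 Raf-active hypoxia, 4 Raf-active normoxia, 0 Raf-inactive hypoxia and 4 Raf-inactive normoxia libraries. All 4 calls were the same at matched depth, and all 4 ended among peaks enriched 5-fold or more.

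In Raf-active cells 1 region was gained with hypoxia (1.96%, against 4.44% of all regions) and 1 was lost (1.96%, against 3.68%). The gain (chr11:102856452-102856855) lay in the MMP12 window beyond the 3′ end of that gene, 13051 bp upstream of the MMP3 start. It was the only region of the cluster open in 4 Raf-active hypoxia libraries and in no library of another group. Its folds were 6.44, 7.04, 5.03 and 4.17, so among peaks enriched 5-fold or more it was not called. The loss was the region inside MMP1 at chr11:102791545-102792042, with folds of 2.38, 2.72, 2.26 and 2.33 in Raf-active normoxia and no peak in Raf-active hypoxia. This call ended at matched depth. The mean percentile there was 23.7 in Raf-active normoxia and 29.2 in Raf-inactive normoxia, where the folds were 4.67 to 6.42. Whether the local background of this region differed between groups was not tested. Without Raf-active normoxia replicate 3 the gains were 2 and the losses 2, without replicate 4 also 2 and 2, and without replicate 1 the losses were 3.

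Peak numbers per locus were tested across all loci. Numbers were scaled to the same total over loci, taken as log2 of the number plus 1, which understates changes of loci near 0, and fitted in limma over the 15118 loci with a mean of at least 3. Of the 9 members 6 passed that filter, and MMP7, MMP27 and MMP13 fell under the filter, and their values without it are given further on. With Raf in normoxia 2 members rose and 0 fell, against 37.1% of all loci that rose and 25.9% that fell. With Raf in hypoxia 1 rose and 1 fell, against 33.6% and 26.3%. With hypoxia 0 rose and 1 fell in Raf-inactive cells, against 6.39% and 7.38%, and 0 rose and 1 fell in Raf-active cells, against 13.7% and 14.2%. At an unadjusted p under 0.05, limma gave 0 falls with Raf in normoxia, 1 rise with hypoxia in Raf-inactive cells and 0 rises in Raf-active cells. The median change of the 6 members was 0.07 and 0.19 with Raf in normoxia and hypoxia, and -0.08 and -0.07 with hypoxia in Raf-inactive and Raf-active cells. Over all loci it was 0.10, 0.05, -0.00 and -0.02 in the same comparisons. Without scaling, the median over all loci was 0.33 with Raf in normoxia and 0.288 with Raf in hypoxia, and 77.6% and 78.4% of the called loci rose in place of 58.9% and 56.1%.

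Among the collagenases, MMP8 gained peaks with Raf in normoxia. MMP8 had 5, 6, 4 and 5 peaks in Raf-active hypoxia, 7, 6, 7 and 5 in Raf-active normoxia, 3, 3, 3 and 4 in Raf-inactive hypoxia, and 3, 4, 3 and 4 in Raf-inactive normoxia. The normoxia groups did not overlap, whereas the hypoxia groups met at 4. The change was 0.47 ± 0.14 in normoxia (log2, SE; adjusted p 0.00458) and 0.28 ± 0.14 in hypoxia (adjusted p 0.0768), and the difference between them did not pass the test (-0.19 ± 0.19, adjusted p 0.524). In normoxia it held in lists of matched depth (0.65) but not with base pairs covered in place of peak number (0.07, adjusted p 0.536). In hypoxia it passed without Raf-inactive hypoxia replicate 4 (0.37, adjusted p 0.0338) or Raf-active hypoxia replicate 3 (0.38, adjusted p 0.0276), at matched depth (0.38, adjusted p 0.0246) and without scaling (0.49, adjusted p 0.00227).

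MMP1 lost peaks with hypoxia in Raf-inactive cells, at the edge of the threshold. MMP1 had 8, 8, 6 and 7 peaks in Raf-active hypoxia, 9 in each Raf-active normoxia library, 5, 4, 6 and 5 in Raf-inactive hypoxia, and 7, 6, 7 and 7 in Raf-inactive normoxia. Raf-active normoxia lay above the other groups, and Raf-inactive hypoxia, the lowest, met Raf-active hypoxia and Raf-inactive normoxia at 6. The hypoxia change was -0.33 ± 0.11 in Raf-inactive cells (adjusted p 0.0442) and -0.24 ± 0.11 in Raf-active cells (adjusted p 0.107). The call ended without any 1 of 6 of the 8 libraries, namely Raf-inactive normoxia replicates 1, 3 and 4 and Raf-inactive hypoxia replicates 1, 2 and 4 (adjusted p 0.0743 to 0.14). It also ended with a replicate block (adjusted p 0.0602), with the 8 libraries alone (adjusted p 0.0848), with 50 kb flanks (-0.11, adjusted p 0.293) and among peaks enriched 5-fold or more (-0.26, adjusted p 0.145). With Raf MMP1 changed by 0.14 ± 0.11 in normoxia (adjusted p 0.265) and 0.24 ± 0.11 in hypoxia (adjusted p 0.0663). The hypoxia value passed at matched depth (0.38, adjusted p 0.00478), in lists of equal length (0.34, adjusted p 0.00824) and without Raf-active or Raf-inactive hypoxia replicate 3 (0.32 each). Both passed without scaling (0.37, adjusted p 0.00331, in normoxia and 0.46, adjusted p 0.000563, in hypoxia) and with base pairs covered (0.55 and 0.69).

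MMP13, collagenase-3, fell under the filter, with 4, 3, 3 and 3 peaks in Raf-active hypoxia, 2, 2, 3 and 2 in Raf-active normoxia, 2 in each Raf-inactive hypoxia library, and 2, 3, 2 and 3 in Raf-inactive normoxia. Its peaks came mainly from a region 5013 bp downstream of the start and one beyond the 3′ end, both open in all 16 libraries. Fitted without the filter, MMP13 passed with hypoxia in Raf-active cells (0.42 ± 0.14, adjusted p 0.0326) and in the interaction (0.59 ± 0.20, adjusted p 0.0435), and not with Raf in normoxia (-0.28, adjusted p 0.0873) or hypoxia (0.31, adjusted p 0.0667).

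The stromelysins MMP10 and MMP3 moved differently. MMP10 had 8, 7, 6 and 6 peaks in Raf-active hypoxia, 7, 6, 6 and 7 in Raf-active normoxia, 5 in each Raf-inactive hypoxia library, and 4, 4, 5 and 4 in Raf-inactive normoxia. Every Raf-active library lay above every Raf-inactive one before scaling. After it, the groups overlapped in both oxygen states. In normoxia, Raf-inactive replicate 3 had 5.41 scaled peaks and Raf-active replicate 2 had 5.3. On the scaled values MMP10 rose by 0.30 ± 0.10 with Raf in normoxia (adjusted p 0.0149). That call held under every alternative tried (0.18 to 0.81), while the change in hypoxia was 0.13 ± 0.10 (adjusted p 0.26). Without scaling the hypoxia change was 0.36 (adjusted p 0.00361), with base pairs covered 0.76 and for peaks enriched 5-fold or more 0.62, each past the threshold. With hypoxia MMP10 changed by 0.25 ± 0.10 in Raf-inactive cells (adjusted p 0.111), a value that passed at matched depth (0.28, adjusted p 0.0426). The windows of MMP10 and MMP1 overlap, so the region gained upstream of MMP10 is counted in both.

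MMP3 had 6, 6, 6 and 5 peaks in Raf-active hypoxia, 8, 8, 7 and 8 in Raf-active normoxia, 4, 6, 6 and 7 in Raf-inactive hypoxia, and 6, 7, 6 and 7 in Raf-inactive normoxia. The Raf-active groups did not overlap, with hypoxia lower. MMP3 fell by 0.33 ± 0.12 on the log2 scale with hypoxia in Raf-active cells, at an adjusted p of 0.0407, and the call ended without any 1 of the 8 libraries of both groups (adjusted p 0.0515 to 0.119), at a −log10 q of at least 5 (-0.25, adjusted p 0.18) and in lists of equal length (-0.27, adjusted p 0.114). With Raf the number of peaks changed by -0.00 ± 0.12 in normoxia (adjusted p 0.979) and -0.21 ± 0.12 in hypoxia (adjusted p 0.13). The hypoxia value passed without Raf-inactive hypoxia replicate 1 (-0.35, adjusted p 0.00411) and among peaks enriched 5-fold or more (-0.52, adjusted p 0.00446). The number of peaks at MMP3 thus did not follow the fold enrichment at its start.

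MMP12, the macrophage elastase gene, had a Raf change that differed between the oxygen states. MMP12 had 6, 5, 5 and 5 peaks in Raf-active hypoxia, 3, 5, 5 and 5 in Raf-active normoxia, 3, 3, 3 and 4 in Raf-inactive hypoxia, and 5, 5, 4 and 4 in Raf-inactive normoxia. The hypoxia groups did not overlap, and the normoxia groups did. The region at chr11:102856452-102856855, open in Raf-active hypoxia alone, lies in this window and is counted here. The Raf change was 0.35 ± 0.13 in hypoxia (adjusted p 0.0308) and -0.23 ± 0.13 in normoxia (adjusted p 0.151). The interaction, the change in hypoxia minus that in normoxia, was 0.57 ± 0.19 (adjusted p 0.0387), and 1 of the 6 members was called, against 19.6% of all loci. The hypoxia call ended without Raf-inactive hypoxia replicate 1, 2 or 3 or Raf-active hypoxia replicate 1 (adjusted p 0.0664 to 0.0943), with 50 kb flanks (0.03, adjusted p 0.769) and with base pairs covered (0.24, adjusted p 0.0504). The interaction lost its call when any 1 of 9 libraries was left out, at matched depth (0.60, adjusted p 0.0566), with a replicate block (adjusted p 0.0559), in lists of equal length (0.51, adjusted p 0.1), at a −log10 q of at least 5 (0.53, adjusted p 0.102), among peaks enriched 5-fold or more (0.30, adjusted p 0.238), with base pairs covered (0.22, adjusted p 0.283) and with 50 kb flanks (0.08, adjusted p 0.723). Leaving out Raf-active normoxia replicate 1, which had 3 peaks, gave the lowest of the values without 1 library, 0.43 (adjusted p 0.0786).

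MMP20 had the most peaks of the cluster, in the longest gene. MMP20 had 9, 11, 11 and 11 peaks in Raf-active hypoxia, 8, 12, 9 and 12 in Raf-active normoxia, 12, 10, 12 and 12 in Raf-inactive hypoxia, and 10, 9, 14 and 9 in Raf-inactive normoxia. The ranges overlapped before scaling in each comparison. After it, MMP20 fell by 0.37 ± 0.13 on the log2 scale with Raf in hypoxia (adjusted p 0.0182), and the change in normoxia was -0.27 ± 0.13 (adjusted p 0.0765). The fall lost its call without scaling (-0.12, adjusted p 0.423), at matched depth (-0.21, adjusted p 0.135), in lists of equal length (-0.16, adjusted p 0.255), at a −log10 q of at least 5 (-0.26, adjusted p 0.0615) and without Raf-active hypoxia replicate 1 (-0.30, adjusted p 0.0683). Its sign turned with peaks enriched 5-fold or more (0.23) and with base pairs covered (0.02). The normoxia value passed without Raf-inactive normoxia replicate 2 or 4 or Raf-active normoxia replicate 2 or 4 (adjusted p 0.0411 to 0.0499).

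MMP7 and MMP27 were the sparsest loci and fell under the filter. MMP7 had 1 peak in each of the 8 Raf-active libraries, 2 in each Raf-inactive hypoxia library, and 2, 3, 3 and 2 in Raf-inactive normoxia. The single peak was the one at the start, and the second was the region lost with Raf. MMP27 had 2, 1, 1 and 2 peaks in Raf-active hypoxia, 1 in each Raf-active normoxia library, 0 in each Raf-inactive hypoxia library, and 0, 1, 0 and 0 in Raf-inactive normoxia. Fitted without the filter, MMP7 passed with Raf in normoxia (-0.94 ± 0.13, adjusted p 3.1e-06) and hypoxia (-0.75 ± 0.13, adjusted p 5.18e-05), and MMP27 did so too (0.66 ± 0.22, adjusted p 0.0128, and 1.24 ± 0.22, adjusted p 8.35e-05). With so few peaks these values depend on the 1 added before the log2, and neither locus passed with hypoxia or in the interaction.

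**Figure D4:**
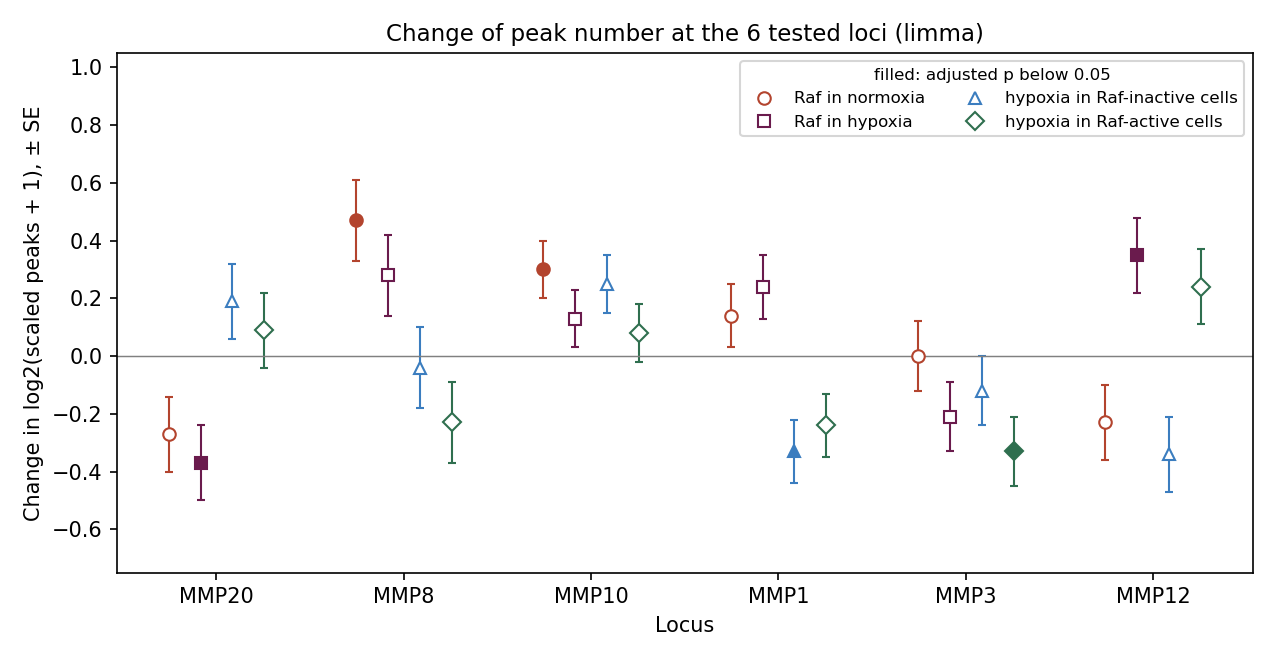
Change in log2 of scaled peaks plus 1 (y axis, with SE) at the 6 tested loci in each Raf comparison (Raf-active minus Raf-inactive) and each hypoxia comparison (hypoxia minus normoxia), fitted in limma over 16 libraries. Filled points, adjusted p below 0.05, are MMP8 and MMP10 for Raf in normoxia, MMP20 and MMP12 for Raf in hypoxia, MMP1 for hypoxia in Raf-inactive cells and MMP3 for hypoxia in Raf-active cells.

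The other genes of the system moved in both directions. Of 14 metalloproteinase loci outside the cluster 7 rose and 6 fell with Raf in normoxia, and in hypoxia 3 rose and 5 fell. Over all loci the shares that rose and fell were 37.1% and 25.9% in normoxia and 33.6% and 26.3% in hypoxia, the background for the other lists as well. MMP14, a membrane-type enzyme that activates other metalloproteinases, fell by 1.00 ± 0.10 on the log2 scale in normoxia and by 0.84 ± 0.10 in hypoxia, while MMP21 rose by 1.15 ± 0.18 in normoxia and MMP15, another membrane-type enzyme, by 0.99 ± 0.13 in hypoxia. MMP23B rose by 0.83 and MMP25 by 0.66 in normoxia, where MMP26 changed by -0.74 and MMP11 by -0.62. In hypoxia MMP9, a gelatinase, rose by 0.43 and MMP17 by 0.39, and MMP11 changed by -0.52 and MMP26 by -0.45. With hypoxia 2 of the 14 rose and 1 fell in Raf-inactive cells, and 2 rose and 2 fell in Raf-active cells, where over all loci 6.39% rose and 7.38% fell in Raf-inactive cells, and 13.7% rose and 14.2% fell in Raf-active cells. These were MMP21 (0.64), MMP16 (0.30) and MMP15 (-0.47) in Raf-inactive cells, and MMP28 (0.35), MMP26 (0.30), MMP23B (-0.72) and MMP24 (-0.30) in Raf-active cells. At matched depth the direction of MMP24 turned (0.02), and MMP15 with hypoxia (-0.37) and MMP26 with hypoxia (0.21) lost their calls, while MMP21 and MMP23B fell under the filter.

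Of 5 tested inhibitor loci, 1 rose and 1 fell with Raf in normoxia: TIMP2, a tissue inhibitor of metalloproteinases, at 0.31 ± 0.09, and RECK, a membrane-anchored inhibitor, at -0.52 ± 0.09. In hypoxia TIMP1 rose by 0.29 ± 0.11. With hypoxia 0 rose and 0 fell in Raf-inactive cells, by limma and also at an unadjusted p under 0.05. In Raf-active cells RECK rose by 0.33 ± 0.09, a call that ended at matched depth (0.19, adjusted p 0.188). Of 6 loci of the plasminogen system and precursor activators, 3 rose with Raf in normoxia, and in hypoxia 3 rose and 1 fell. PLAUR, the urokinase receptor, rose by 0.53 ± 0.09 in normoxia and 0.38 ± 0.09 in hypoxia, and the precursor convertase FURIN by 0.34 and 0.30 (0.60 and 0.66 at matched depth). PLAT rose by 0.61 in normoxia, and in hypoxia SERPINB2 rose by 0.39. With hypoxia 1 fell in each Raf state, PLAU, the urokinase gene, at -0.55 in Raf-inactive cells and PLAT at -0.40 in Raf-active cells.

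Of 12 AP-1 and ETS factor loci 3 rose and 2 fell with Raf in each oxygen state. In normoxia JUND rose by 0.49, FOSB by 0.48 and FOSL1 by 0.34, and ETV5 changed by -0.64 and FOSL2 by -0.37. In hypoxia JUND rose by 0.49, FOSB by 0.35 and ETV4 by 0.24, and FOSL2 changed by -0.62 and ETS2 by -0.34. Without scaling FOSL2 in normoxia (-0.13) and ETS2 (-0.10) lost their calls. With hypoxia 1 rose and 1 fell in Raf-inactive cells, FOSL1 at 0.40 and ETV5 at -0.31, and 1 rose and 2 fell in Raf-active cells, ETV5 at 0.28 (0.09 at matched depth, adjusted p 0.497, and 0.24 without scaling, adjusted p 0.081), ETV1 at -0.52 and FOSL2 at -0.42. Of 11 tested substrate loci 2 rose and 4 fell with Raf in normoxia, and in hypoxia 3 rose and 6 fell. COL1A2, a chain of type I collagen, changed by -0.99 ± 0.11 in normoxia and -0.73 ± 0.11 in hypoxia, VCAN, the proteoglycan versican, by -0.84 and -0.56, and COL3A1 by -0.56 and -0.70. ACAN, the cartilage proteoglycan aggrecan, rose by 0.82 and 0.77, and ELN, elastin, by 0.39 and 0.31. At matched depth ELN lost its call in hypoxia (0.26, adjusted p 0.0525) and ACAN changed by 0.38 there. With hypoxia 0 of 11 rose and 0 fell in Raf-inactive cells by limma, and 2 and 2 did at an unadjusted p under 0.05. In Raf-active cells 2 rose, COL1A2 at 0.40 and VCAN at 0.37, and 1 fell, FN1, fibronectin, at -0.42.

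The nearest genes beside the cluster moved in both directions with Raf. DCUN1D5, on the MMP13 side, rose by 0.55 ± 0.13 with Raf in normoxia and 0.46 ± 0.13 in hypoxia, and TMEM123, on the MMP7 side, by 0.40 and 0.33. The long genes DYNC2H1 and PDGFD, next beyond DCUN1D5, changed by -1.65 ± 0.08 and -1.67 ± 0.08 on the log2 scale with Raf in normoxia and by -1.28 and -1.36 in hypoxia. BIRC2, an inhibitor of apoptosis, rose by 0.55 ± 0.13 with Raf in normoxia but changed by -0.07 ± 0.13 in hypoxia, and BIRC3 did not pass the test in either (0.20 and -0.05). Over the 16 libraries, the loci whose log2 peak numbers were most like the summed numbers of the cluster were NAV2, TLCD5, RUNX2, KIAA2012 and COL15A1. Their root mean square differences from the cluster were 0.0713, 0.0748, 0.0776, 0.082 and 0.0828 on the log2 scale, hardly below the 0.0839 by which the cluster varied around its own mean.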

How the data were processed

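ATAC-seq peak lists of 16 libraries, 4 in each of 4 groups, were used. The submitters' processing notes name MACS2, Bowtie2 and bedtools, and besides these Picard, SAMtools, deepTools, cutadapt and FastQC, with hg38; versions, settings and any blacklist are not given in the sources used here. The authors deposited 1 narrowPeak list per library, with none for pooled replicates. Each line holds a score, a fold enrichment (a ratio over the local background), and −log10 p and −log10 q values as the authors' caller wrote them. These values depend on depth and were used to rank, filter or describe peaks. Read totals are not in the lists. The Tn5 offset and fragment filters are not given in the sources used here.

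Lines that repeat an interval were treated as 1 peak placed by its tallest summit, on chromosomes 1 to 22 and X. Peaks were counted over protein-coding gene bodies of RefSeq (GRCh38.p14) with 10 kb flanks. They were then scaled so that every library had the same sum over loci, and 1 was added before taking log2. The fit of loci averaging 3 or more such peaks used limma 3.58.1 with trended, robust moderation in R 4.3.3, with 16 libraries and 4 group means, for 15118 loci in all, with Benjamini-Hochberg adjustment and a threshold of 0.05. The trended and robust settings were chosen after the data were seen. The step was tested on simulated data. Overlapping peaks of all lists were joined into regions; the fold of a region is that of its strongest peak in the library. Depth was matched by recovering pileup and background from the listed fold and −log10 p (pileups within 0.05 of a whole number for 100% of the peaks examined in every library) and thinning them to a background of 3.01, keeping a −log10 p of at least 5; peak lengths stayed as called.

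All 9 members are named. For other lists the called genes with the 3 largest rises and falls per Raf comparison and the 2 largest per hypoxia comparison are named, as are the 3 nearest genes on each side, the 5 loci of the most similar pattern outside 1 Mb around the cluster, every region gained or lost, the top region of each group and regions within 1 kb of a start. Starts were placed at the upper coordinate of each gene, since all 9 lie on the minus strand. The lists were other metalloproteinases, inhibitors, the plasminogen system and activators, AP-1 and ETS factors, substrates and 5 sets of cell type markers. Members, lists and rules were chosen with earlier results of these data known. Peak sequences and exon or intron positions were not used here. Some genes that the naming rule selects are not reported here. The alternatives were wider or no flanks, placement by overlap, stricter peaks, equal list length, matched depth, no scaling, base pairs covered, another pseudocount, no filter, 8 libraries alone, a replicate block, other region rules and each library left out.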

Additional observations from a re-analysis of the deposited data

Results flagged for a closer look

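In 13 of the 32 groups of 4 libraries examined, 1 library lay far from the other 3, which lay close together. Chance flags about 1 in 20 groups, but with whole-number peaks a difference of 1 peak beside 3 equal values is enough, so these flags carry little. The odd library had 9 peaks at MMP20 in Raf-active hypoxia and 10 at MMP20 in Raf-inactive hypoxia. It had 1 peak at MMP27 in Raf-inactive normoxia, 4 at MMP8 in Raf-inactive hypoxia, 5 at MMP10 in Raf-inactive normoxia and 6 at MMP1 in Raf-inactive normoxia. At MMP3 it had 5 in Raf-active hypoxia and 7 in Raf-active normoxia, at MMP12 6 in Raf-active hypoxia, 3 in Raf-active normoxia and 4 in Raf-inactive hypoxia, and at MMP13 4 in Raf-active hypoxia and 3 in Raf-active normoxia.

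The Raf change of MMP12 differed between hypoxia and normoxia by 0.57 on the log2 scale in limma, a test of the difference itself with an adjusted p of 0.0387. It was called with each of 7 of the 16 libraries left out and not with any of the other 9.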

How the results depend on the processing

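The number of called members, small to begin with, moved with most choices, and the causes were not tested. For Raf in normoxia (2 called) it was 6 with 50 kb flanks, 3 unscaled, 1 among peaks enriched 5-fold or more and 4 with no filter. With base pairs it was 2, but MMP1 was called in place of MMP8. For Raf in hypoxia (2 called) it was 4 with 50 kb flanks, unscaled or with no filter, and 1 at a −log10 q of at least 5. It was 3 with placement by overlap, among peaks enriched 5-fold or more and at matched depth. With base pairs it was 2, but MMP10 and MMP1 were called in place of MMP20 and MMP12. For hypoxia in Raf-inactive cells (1 called) it was 2 with 50 kb flanks, equal list length or matched depth, and 0 with the 8 libraries alone. For hypoxia in Raf-active cells (1 called) it was 3 with 50 kb flanks, 2 unscaled, with base pairs or with no filter, and 0 at the −log10 q limit. For the interaction (1 called) it was 2 with no filter and 0 with 50 kb flanks, the −log10 q limit, matched depth or base pairs. With each library left out in turn the numbers were 2 to 3, 0 to 4, 0 to 1, 0 to 0 and 0 to 1 in the same order. With no filter the added calls were of MMP7, MMP27 and MMP13. Among values called in either setting, the direction turned for MMP20 with Raf in hypoxia among peaks enriched 5-fold or more (0.23) and with base pairs (0.02), and for MMP10 with hypoxia in Raf-active cells with 50 kb flanks (-0.25). Uncalled values turned as well, among them MMP1 with Raf in hypoxia (-0.14) and MMP10 with Raf in hypoxia (-0.07) with 50 kb flanks, and MMP1 (-0.17) and MMP12 (0.18) with Raf in normoxia among peaks enriched 5-fold or more.

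Libraries with the same replicate number did not deviate together (correlations of -0.0388 to 0.014), so the numbers pair nothing. With the number as a replicate block the calls fell to 0 for hypoxia in Raf-inactive cells and 0 for the interaction, and no other member call changed.

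The Raf difference in cluster peaks was 9.5 in normoxia and 8.0 in hypoxia with 50 kb flanks, and 2.0 and 1.5 with no flank. In normoxia it was 7.25 at the −log10 q limit, 3.0 at matched depth and -0.0367 once scaled. In hypoxia it was 3.0 among peaks enriched 5-fold or more, 2.5 at equal list length and -0.588 once scaled. The hypoxia difference in Raf-active cells was -5.75 with 50 kb flanks. Without single libraries the 4 differences were 4.17 to 5.83, 4.58 to 6.58, -3.83 to -1.83 and -3.08 to -1.50.

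With the looser rule of at least 3 of 4 libraries against at most 1 of 4, gained and lost regions were 13 and 8 for Raf in normoxia, 11 and 8 for Raf in hypoxia, 5 and 6 for hypoxia in Raf-inactive cells, and 3 and 5 for hypoxia in Raf-active cells. Among peaks enriched 5-fold or more, losses were 2 for Raf in normoxia, 0 for hypoxia in Raf-inactive cells and 2 for hypoxia in Raf-active cells, and gains 1 for hypoxia in Raf-inactive cells. At the −log10 q limit losses were 3 for Raf in normoxia and 1 for hypoxia in Raf-inactive cells. At matched depth losses were 3 for Raf in hypoxia and 0 for hypoxia in Raf-active cells, where gains were 2; equal list length gave 2 and 2 there. When a peak had to cover 50% of a region, hypoxia in Raf-inactive cells gained 1. Without single libraries gains were 6 to 8, 6 to 9, 2 to 3 and 1 to 2, and losses 5 to 7, 5 to 7, 2 to 3 and 1 to 3.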
